A study of Mus musculus with 6 samples.

Results

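After 3 days of doxycycline, fibroblasts of a Tet1-driven reprogramming system had 116087 peaks of 5-hydroxymethylcytosine (5hmC) and 165869 peaks of 5-methylcytosine (5mC). Most peaks of either mark overlapped no peak of the other, which need not mean that the other mark was missing. Yet 5mC peaks covered 32.2% of 5hmC peak centres, against 6.60% of the span between the first and last peak of each chromosome. For 5hmC peaks over 5mC peak centres these shares were 23.4% and 4.94%. The 281956 peaks of these 2 lists, out of 663518 in the 6 lists of the series, are the subject here. A peak was said to carry both marks when it overlapped a peak of the other list by at least 1 bp. Of the 5hmC peaks, 46905 overlapped a 5mC peak and 69182 were 5hmC only. Of the 5mC peaks, 47841 overlapped a 5hmC peak and 118028 were 5mC only.

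The day-3 cells were passage 4 fibroblasts of mice derived from TSKM-iPS cells, kept in ES medium with doxycycline for 3 days. TSKM stands for Tet1, Sox2, Klf4 and c-Myc, the factors that doxycycline switches on, and the strain is given as OG2-GFP/Rosa26-M2rtTA, so the drug-dependent activator comes from the Rosa26 locus in both samples. The 5hmC sample was precipitated with a polyclonal antibody from Active Motif and the 5mC sample with a monoclonal antibody from Calbiochem, from 500 ng of adapter-ligated DNA each. The series also holds both marks in the fibroblasts before doxycycline (passage 4) and in an iPS cell line of the same system (passage 10 to 15), which are used here only to follow the day-3 peaks. There was 1 library per stage and mark, so no value below has a replicate error and no test was made. Intervals in brackets are 95% intervals for counting error alone, and neighbouring peaks are not independent. The peak lists hold no expression values, so the cell type could not be checked against marker genes, and the number of reads behind each list is unknown.

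5mC is the main modified base of mammalian DNA, placed mostly on cytosines next to a guanine by DNA methyltransferases. Tet enzymes, of which Tet1 is one, oxidise 5mC to 5hmC and further, which is a known route by which methylation is removed. 5hmC is known to be abundant in pluripotent cells and in neurons and scarce in cultured fibroblasts. A precipitated fragment reports a stretch of DNA from many cells, so a region with both peaks can carry the marks on the same molecule, on different alleles or in different cells. Which antibody was used and which mark was targeted cannot be told apart.

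Counted from the 5hmC list, 40.4% of peaks (40.1 to 40.7) had 5mC. Counted from the longer 5mC list, 28.8% of peaks (28.6 to 29.1) had 5hmC. When overlapping peaks of both lists were merged, 231500 separate regions remained. Of these, 69182 (29.9%) had 5hmC only, 44290 (19.1%) had both marks and 118028 (51.0%) had 5mC only. In base pairs the marks were farther apart, with 88.1 Mb under 5hmC alone, 39.2 Mb under both and 130.9 Mb under 5mC alone. Together the 2 lists covered 10.02% of the span between the first and the last peak of each chromosome. The shared 39.2 Mb was 30.8% of the 5hmC length and 23.0% of the 5mC length.

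Set beside the other stages, day 3 had the largest number of regions with both marks of the 3 stages. Fibroblasts had 11279 such regions, the day-3 cells 44290 and iPS cells 38979, or 8.39%, 19.1% and 20.3% of all regions of the stage. Regions with 5hmC only made up 22.9%, 29.9% and 69.3% in the same order, and regions with 5mC only 68.7%, 51.0% and 10.4%. Peak numbers depend on the unknown depth of each library, and these differences between stages could not be tested.

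Where both marks met, the peaks usually matched closely. Of the 46905 5hmC peaks with 5mC, 93.0% overlapped a single 5mC peak, and 94.8% of the 47841 5mC peaks with 5hmC overlapped a single 5hmC peak. The 5mC peaks covered a median of 79.55% of such a 5hmC peak (quartiles 54.4% and 97.8%), and the 5hmC peaks covered a median of 81.9% of such a 5mC peak (quartiles 56.5% and 99.0%). In 21.4% of the 5hmC and 23.4% of the 5mC peaks the other mark covered the whole peak. Centres of the 50456 overlapping pairs lay a median of 264.5 bp apart, and in 43.0% of the pairs they lay within 200 bp, which is less than the length of the sequenced fragments (300 to 500 bp). Contacts of 100 bp or less were few, with 1493 5hmC and 1627 5mC peaks. Just outside the limit, 1859 5hmC-only and 1938 5mC-only peaks ended within 100 bp of a peak of the other mark. Median widths were similar on both sides of this limit, at 917 bp inside and 900 bp outside for 5hmC and 905 bp and 897 bp for 5mC.

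The strengths of both marks in the same pair were weakly related. Across the 50456 pairs the rank correlation between the 5hmC score and the 5mC score was 0.08, and that between the widths was 0.16. These are descriptions across peaks that share their 2 libraries. Among the 9101 pairs whose 5hmC peak was in the best-scoring 10% of its list, 24.7% had a 5mC peak in the best 10% of its own list, against 19.3% over all pairs.

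Coverage by the other mark was highest at peak centres and also stood above its mean over the span in the neighbourhood. 5mC peaks covered 32.2% of the centres of 5hmC peaks, 15.9% of the positions 1 kb away and 15.4% of those 10 kb away. 5hmC peaks covered 23.4% of the centres of 5mC peaks, 11.8% of the positions 1 kb away and 11.4% of those 10 kb away. Coverage at the centre was thus 2.10 times that at 10 kb around 5hmC peaks and 2.04 times around 5mC peaks, and at 1 kb it was close to the level of the flanks. The flanks at 10 kb were themselves above the 6.60% of the span that 5mC peaks covered and the 4.94% that 5hmC peaks covered. The same local rise was present in the weakest peaks. For the lowest-scoring 1 of 5 groups, the covered shares were 27.7% at the centre and 13.8% at 10 kb for 5hmC peaks, and 17.2% and 9.67% for 5mC peaks. The lowest coverage around these weak peaks lay close beside them, with 13.01% for 5hmC and 8.83% for 5mC at 700 bp from the centre.

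**Figure D1:**
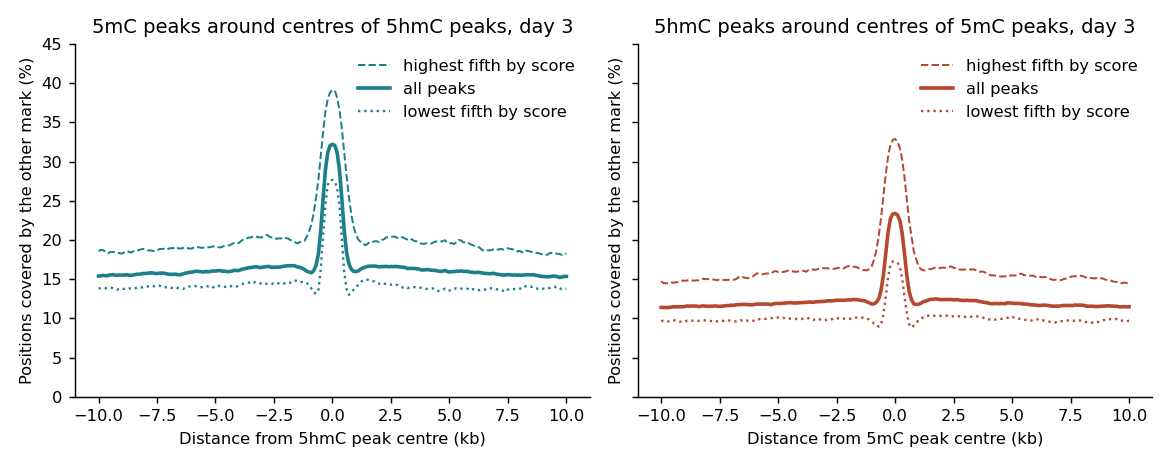
Share of positions covered by the other mark (vertical axis, percent) against the distance from the peak centre (horizontal axis, kb) for 5hmC peaks (left) and 5mC peaks (right) at day 3, with all peaks as solid lines and the highest- and lowest-scoring of 5 groups as dashed and dotted lines. Coverage stood at 32.2% and 23.4% at the centres of all peaks and was near 15.4% and 11.4% at 10 kb.

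Peaks with both marks were wider than peaks with a single mark. The median width was 1008 bp (1003 to 1012) for 5hmC peaks with 5mC and 882 bp (880 to 885) for 5hmC-only peaks. It was 981 bp (978 to 985) for 5mC peaks with 5hmC and 869 bp (867 to 870) for 5mC-only peaks. The difference was 126 bp in the 5hmC list and 112 bp in the 5mC list, and the upper ends of the classes differed more, with 90th percentiles of 2084 and 1489 bp for 5hmC and of 1908 and 1417 bp for 5mC. Peaks of at least 3 kb mostly carried both marks. Of the 1965 such 5hmC peaks 82.04% (80.3 to 83.7) had 5mC, and of the 1595 such 5mC peaks 69.8% (67.5 to 71.98) had 5hmC. A wider peak has more room for an overlap of 1 bp. When the centre of a peak had to be covered, the differences in median width were 65 bp for 5hmC and 79.5 bp for 5mC, and with at least 50% of the peak covered they were 54.5 bp and 72 bp. Among 5hmC peaks, the share with a covered centre rose with width up to 38.5% in the eighth of 10 groups of 5hmC peaks ranked by width and was 36.5% in the widest group, whereas any overlap reached 64.9% there. Among 5mC peaks the share with a covered centre was highest in the widest group, at 31.4%, where any overlap reached 50.4%.

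The authors' peak score was also higher where both marks met. The files do not define this score. It is read here as the peak caller's measure of strength and was compared only within a list. Its median was 141 (140 to 143) for 5hmC peaks with 5mC and 104 (104 to 105) for 5hmC-only peaks. It was 138 (137 to 139) for 5mC peaks with 5hmC and 98.8 (98.3 to 99.2) for 5mC-only peaks. The difference between these medians was 37.0 for 5hmC and 39.25 for 5mC, and 19.4 and 30.3 when the centre of the peak had to be covered. From the lowest to the highest of 10 score groups, the share with the other mark went up in each step, from 31.6% to 63.2% for 5hmC and from 19.8% to 50.4% for 5mC. Width and score go together, so the share was also taken within 3 groups of equal size by width. Among the narrowest 5hmC peaks (282 to 819 bp) it was 30.6% (29.6 to 31.6) in the lowest and 30.2% (29.2 to 31.3) in the highest of 5 score groups, and among those of middle width (819 to 1074 bp) 36.9% (35.8 to 38.0) and 37.65% (36.6 to 38.7). In both width groups, these shares of the lowest and the highest score group lay within each other's counting interval. With a covered centre they were 26.85% (25.9 to 27.85) and 27.4% (26.45 to 28.4) for narrow peaks. For middle width they were 31.0% (29.95 to 32.0) and 33.0% (32.0 to 34.1), outside each other's interval. Among the widest 5hmC peaks (1074 to 25402 bp) the shares with any overlap were 46.5% and 67.7%, and those with a covered centre 35.7% and 42.5%. For any overlap, the 5mC list had the higher share in the highest score group of each width group. Its shares in the highest and the lowest score group were 22.5% and 19.05% for narrow, 31.0% and 24.1% for middle and 54.1% and 31.3% for wide peaks. With a covered centre they were 20.4% and 16.3%, 27.5% and 19.7%, and 37.0% and 24.3%.

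**Figure D2:**
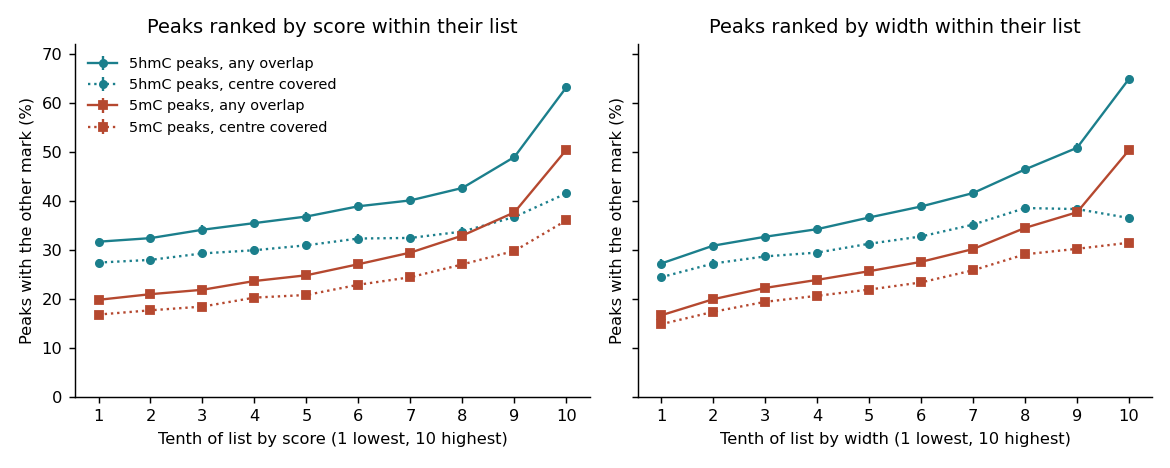
Share of 5hmC peaks (circles) and 5mC peaks (squares) with the other mark (vertical axis, percent) in 10 groups of equal size ranked by score (left) and by width (right) within each list, with bars for the 95% counting interval, mostly smaller than the symbols. Solid lines count any overlap and dotted lines only a covered peak centre. Any overlap reached 63.2% of 5hmC and 50.4% of 5mC peaks in the best-scoring group, while covered centres reached 41.5% and 36.0%.

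A score of exactly 3100, for which the files give no reason, recurred in both lists, for 258 5hmC and 192 5mC peaks. Of these, 236 of the 5hmC peaks (91.5%) and 170 of the 5mC peaks (88.5%) carried both marks. The broadest peak with both marks was one of them. It was found in either list at nearly the same place, at chr11:3075046-3100447 for 5hmC and at chr11:3075054-3100455 for 5mC (all positions on mm9). These 25.4 kb were also covered by peaks of the fibroblast lists (25.4 kb of 5hmC and 25.4 kb of 5mC) and of the iPS lists (22.5 kb and 25.4 kb). At day 3, 27 5hmC and 18 5mC peaks scored above 3100, and whether they are stronger than the peaks at 3100 is not known. Peaks called highest-scoring here and below follow the printed score only. The highest-scoring 5hmC peak with 5mC was chr3:126325534-126327856, with a score of 3230.05. It had no fibroblast 5hmC peak. The highest-scoring 5mC peak with 5hmC was chr7:7230164-7231398, with a score of 3230.05 as well, and it overlapped a peak of each other list.

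Among single-mark peaks, the highest-scoring 5hmC-only peak was chr3:89698623-89700571 with a score of 3198.66, and the nearest 5mC peak was 2.73 kb away. It overlapped a 5mC peak in fibroblasts and a 5hmC peak in iPS cells. The broadest 5hmC-only peak, chr10:67590174-67598090, was 7.92 kb long. Neither mark had a peak there in fibroblasts, and in iPS cells 5hmC covered 1.92 kb and 5mC 0.741 kb of it. The highest-scoring 5mC-only peak, chr6:48387808-48389693, had a score of 3183.58, a 5mC peak in fibroblasts and no peak of either mark in iPS cells. The broadest 5mC-only peak, chr2:174247015-174255124, was 8.11 kb long, 7.73 kb of which was under 5mC peaks in fibroblasts, and in iPS cells 5hmC covered 6.93 kb and 5mC 6.86 kb.

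The peaks of each mark came in clusters. The median gap to the nearest peak of the same list was 1.96 kb for 5hmC and 1.77 kb for 5mC. Even spacing over the span would give one peak in 22.2 kb and in 15.5 kb. Peaks placed at random would also lie closer to the nearer of their neighbours than even spacing gives. The contrast therefore does not measure how strong the clustering was. Another peak of the same mark lay within 5 kb for 71.4% of 5hmC peaks (71.1 to 71.6) and 76.1% of 5mC peaks (75.9 to 76.3). Joined at gaps of up to 5 kb, clusters of at least 10 peaks held 10.6% of the 5hmC and 18.2% of the 5mC list. The 5mC list is the longer one, and with its 116087 best-scoring peaks alone the share within 5 kb was 69.7%, below that of 5hmC, so an order of the marks in clustering cannot be given. Within either list, peaks with both marks were the more clustered. Another 5hmC peak lay within 5 kb for 76.4% of 5hmC peaks with 5mC and 67.9% of 5hmC-only peaks, and another 5mC peak for 83.1% of 5mC peaks with 5hmC and 73.3% of 5mC-only peaks.

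The largest 5hmC cluster held 66 peaks at chr5:125486748-125674757, where 61 5mC peaks lay as well, and the largest 5mC cluster held 71 peaks at chr9:118857189-119065470 beside 26 5hmC peaks. In fibroblasts these places held 15 and 14 5hmC peaks and 54 and 58 5mC peaks. These clusters were chosen after their values were seen.

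Most single-mark peaks had a peak of the other mark within 50 kb, 96.65% of 5hmC-only and 92.5% of 5mC-only peaks. Within 5 kb these shares were 64.1% and 49.6%. The nearest 5mC peak was a median of 2.91 kb from a 5hmC-only peak, and the nearest 5hmC peak was a median of 5.07 kb from a 5mC-only peak. Within 1 kb there was a 5mC peak for 24.4% of 5hmC-only peaks (24.1 to 24.7) and a 5hmC peak for 16.1% of 5mC-only peaks (15.9 to 16.3). Farther than 50 kb from the other mark were 2316 of the 5hmC-only peaks (3.35%) and 8883 of the 5mC-only peaks (7.53%). The 5mC list is the longer one and these distances were not set against peaks placed at random. They therefore do not show which class lay closer to the other mark than list length alone gives.

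Along the chromosomes, regions of one class tended to follow each other. After a region with 5hmC only, the next was again 5hmC only in 42.3% of cases (41.9 to 42.6), against 29.9% over all regions. After a region with 5mC only, the next was 5mC only in 61.1% (60.9 to 61.4), against 51.0% over all, and after a region with both it was both in 26.1% (25.7 to 26.6), against 19.1% over all. Runs of at least 10 regions of one class numbered 145 for 5hmC only, 10 for both and 1240 for 5mC only. They held 2.53% of the 5hmC-only and 15.7% of the 5mC-only regions. 5mC only was also the most frequent class, so these counts and shares do not show for which class neighbouring regions were more alike.

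The longest run of 5mC only had 83 peaks over 594 kb, at chr4:124986484-125580927, and no 5hmC peak at day 3. In the same place 5hmC had 22 peaks over 19.4 kb in fibroblasts and 141 peaks over 173 kb in iPS cells. 5mC peaks there took up 64.2 kb before doxycycline, 86.2 kb after 3 days and 54.1 kb in the iPS line. The absence of 5hmC at day 3 is what defined the run, while the values of the other stages were not used to choose it. The next longest runs of 5mC only also had 5hmC peaks at the other stages. They were chosen after their values were seen and held 73 peaks at chr12:107665304-108227938, 57 at chr4:127918413-128182444, 56 at chr4:123702450-124123468 and 56 at chr9:101987333-102394033. In these 4 runs the fibroblast list had 35, 7, 15 and 8 5hmC peaks, the day-3 list had 0, and the iPS list had 63, 21, 76 and 34.

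The longest run of 5hmC only had 26 peaks over 731 kb, at chrX:48387836-49118820. Its 5hmC peaks took up 2.86 kb before doxycycline, 24.05 kb after 3 days and 0 kb in the iPS line, and 5mC had no peak at any of the 3 stages. The next longest run was close to it, with 24 peaks at chrX:49353383-49723683, no fibroblast 5hmC peak and 4 in iPS cells. It was chosen after its values were seen. A 5mC peak ends such a run, and X had 3.75 5mC peaks per Mb at day 3, against 68.5 on the autosomes. The iPS list held 422 5hmC peaks on X in all. The part of these low numbers in the 2 runs was not tested.

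How long such a run was went with its peaks at the other stages, of which iPS 5hmC is given first. Among 5hmC-only regions, 36.5% (35.9 to 37.1) of those standing alone overlapped an iPS 5hmC peak, 30.1% (29.6 to 30.6) in runs of 2 to 4, 24.3% (23.4 to 25.2) in runs of 5 to 9 and 18.9% (17.2 to 20.9) in runs of 10 or more. Of the regions in the longest runs, 202 of 1747 were on chromosome X, and on the autosomes alone the shares were 36.6%, 30.3%, 24.9% and 20.8%. Among 5mC-only regions the share stayed between 49.2% and 51.6% in all 4 run lengths.

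Windows of 100 kb gave the regional balance. Of 20524 windows with a peak of either mark, 15645 had both, 1267 had 5hmC alone and 3612 had 5mC alone. 5hmC had the greater covered length in 7216 windows and 5mC in 13307, so 35.2% of the windows that differed had more 5hmC. 5hmC covered over 2 times the length of 5mC in 3392 windows, 16.5% of those with a peak, and 5mC over 2 times that of 5hmC in 8205, or 40.0%. The lists differ in length, and when each window was expressed as a share of its own list's covered length, 46.3% had more 5hmC. On the autosomes, windows rich in one mark were mostly rich in the other. Over their windows the rank correlation of both covered lengths was 0.71 (19992 windows, a description across windows that share their libraries, base composition and mappability). On chromosome X, where both marks were sparse, it was 0.016 (514 windows). In the 2052 windows richest in 5hmC, with 16.3 kb or more, the median 5mC length was 20.7 kb. In the 2053 windows of the sixth of 10 groups by 5hmC length, with 3.40 to 5.11 kb of 5hmC, it was 5.44 kb.

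The windows with the largest excess of 5hmC over 5mC were chr3:126300001-126400000, with 66.5 kb of 5hmC and 10.4 kb of 5mC, chr11:76100001-76200000, with 78.3 kb and 23.7 kb, and chr6:101200001-101300000, with 52.4 kb and 9.66 kb. The first of them contains the highest-scoring 5hmC peak with 5mC. 5hmC in these 3 windows covered 3.20, 4.53 and 1.303 kb in fibroblasts, and 13.6, 45.4 and 21.7 kb in iPS cells, so day 3, at which they were chosen, had the highest value of the 3 stages in each. The windows with the largest excess of 5mC were chr4:151800001-151900000, with 9.76 kb of 5hmC and 59.7 kb of 5mC, chr11:117900001-118000000, with 11.8 kb and 61.1 kb, and chr5:116300001-116400000, with 21.2 kb and 68.1 kb. 5hmC covered 7.82, 6.17 and 6.10 kb of these windows in fibroblasts. In iPS cells it covered 46.7, 71.5 and 73.5 kb, above its day-3 length in each. The choice by a 5mC excess at day 3 favours a low day-3 5hmC value. The iPS 5hmC list is also the longer one, with 174079 peaks against 116087.

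The windows with most base pairs under both marks were of another kind. In chr11:3000001-3100000, chr1:90100001-90200000 and chrY:2800001-2900000, both marks at day 3 shared 70.9, 50.4 and 41.0 kb. Peaks of both marks covered 32.6 kb or more of these windows in fibroblasts and 40.35 kb or more in iPS cells, so they were widely covered in all 6 lists.

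Windows with the same balance also formed long runs. Runs of at least 10 windows with more 5mC held 24.8% of the windows with more 5mC, and runs of that length with more 5hmC held 3.92% of the windows with more 5hmC. Windows with more 5mC were the more frequent kind, since 35.2% of all had more 5hmC, so these shares do not show for which mark neighbouring windows were more alike. The longest of them, chosen after their values were seen, were 1.7 Mb with more 5hmC at chr2:43600001-45300000 (132 kb of 5hmC and 54.6 kb of 5mC) and 5.5 Mb with more 5mC at chr13:55400001-60900000 (358 kb of 5hmC and 889.7 kb of 5mC).

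All 19 autosomes had fewer 5hmC than 5mC peaks, and chromosome X had more. A higher ratio on X was not particular to day 3. The ratio of 5hmC to 5mC peaks ran from 0.587 on chromosome 5 to 0.828 on chromosome 3 and was 0.696 over all autosomes. On chromosome X, 1004 5hmC and 605 5mC peaks gave a ratio of 1.66. In fibroblasts the ratio was 1.22 on X and 0.404 on the autosomes, and in iPS cells it was 3.91 and 2.85. At day 3 both marks were sparse on X, at 0.131 times the autosomal number per Mb for 5hmC and 0.0548 times for 5mC. X peaks were also narrower and weaker, with median widths of 820.5 bp for 5hmC and 837 bp for 5mC, against 905 to 954 bp and 871 to 921 bp over the autosomes, and median scores of 92.9 and 91.2, against 112 to 133 and 100.4 to 115. Neither the number of X chromosomes in the cells nor how well reads map to them is known here.

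Overlap on X has to be read beside these low densities of the other mark. There, 14.7% of 5hmC peaks (12.7 to 17.1) had 5mC, against 35.3% to 47.4% over the autosomes, while 24.8% of 5mC peaks (21.5 to 28.4) had 5hmC, against 25.8% to 33.5%. Among the 514 X windows of 100 kb with a peak, 36.4% had both marks, 38.5% had 5hmC alone and 25.1% had 5mC alone, whereas on the autosomes these shares were 77.3%, 5.35% and 17.4%. The X 5hmC-only regions were rarely found at other stages. Of 856 such regions, 29 (3.39%, 2.37 to 4.82) overlapped a 5hmC peak in fibroblasts and 40 (4.67%, 3.45 to 6.30) one in iPS cells, against 8.17% and 31.7% of the autosomal 5hmC-only regions. The iPS list held few X peaks in all, 422 of 5hmC and 108 of 5mC, and their part in these shares was not tested.

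**Figure D3:**
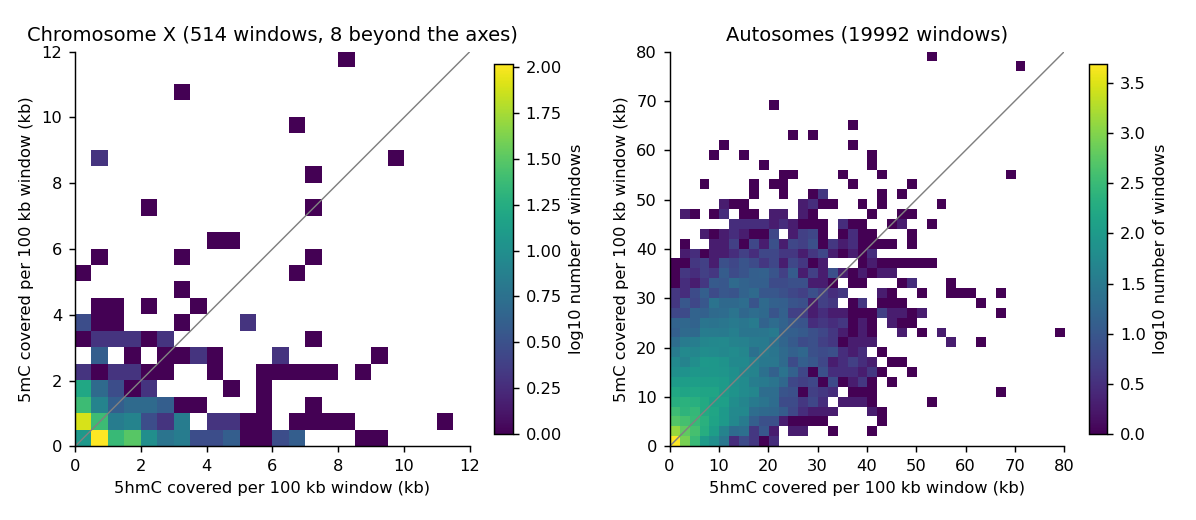
Covered length of 5hmC (horizontal axis, kb) and 5mC (vertical axis, kb) per 100 kb window with a peak at day 3 on chromosome X (left, 514 windows) and the autosomes (right, 19992 windows), with colour for the log10 number of windows and a grey line where both are equal. The axes of the panels differ in range. On X many windows lie along one axis, with 38.5% of them holding 5hmC alone, against 5.35% on the autosomes.

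Among autosomes, both marks were densest on the same chromosomes. Chromosomes 11 and 19 had 1.35 and 1.397 times the autosomal number of 5hmC peaks per Mb and 1.38 and 1.29 times that of 5mC. Chromosome 14 had the lowest 5hmC density (0.789 times) and chromosome 3 the lowest 5mC density (0.745 times). Over the 19 autosomes the rank correlation of both densities was 0.92, as a description. Overlap of 5hmC with 5mC was highest on chromosomes 17 (47.4%, 46.0 to 48.8) and 5 (47.4%, 46.25 to 48.5) and lowest on chromosomes 13 (35.3%, 34.05 to 36.6) and 3 (35.3%, 34.2 to 36.5). The share of 5mC peaks with 5hmC varied less, from 25.8% on chromosome 9 to 33.5% on chromosome 19. Chromosome Y had 45 5hmC and 50 5mC peaks, 37 and 34 of them with both marks, and the mitochondrial genome had 2 of each.

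**Figure D4:**
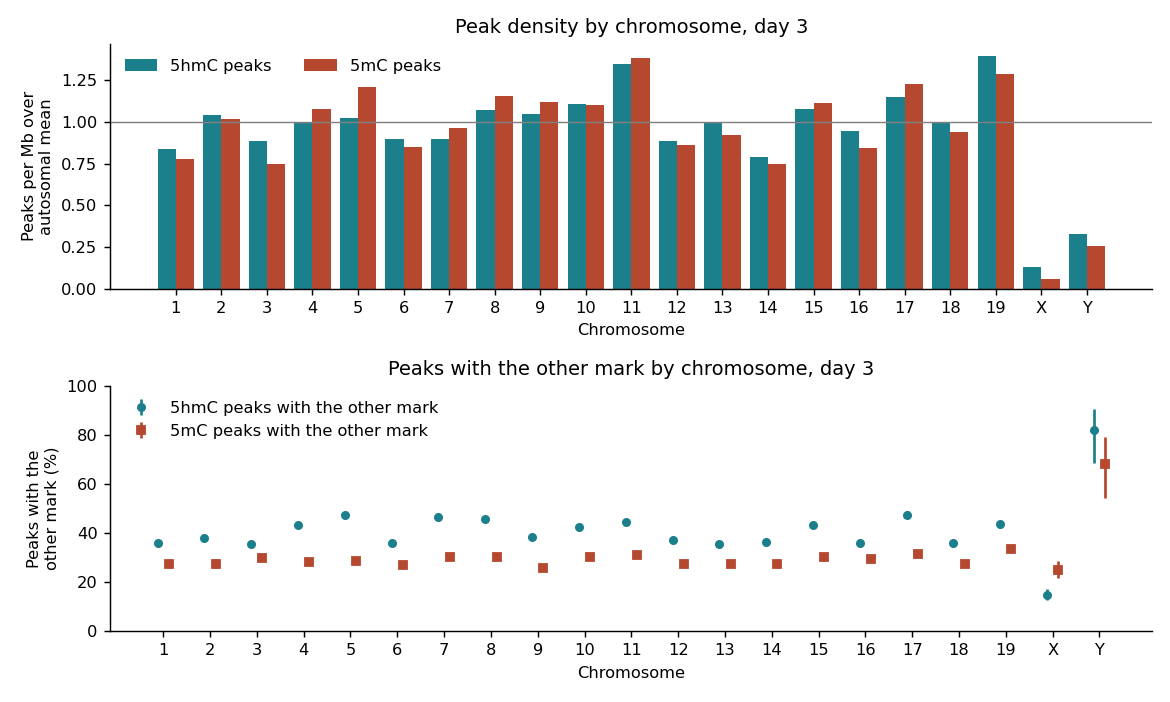
Top, number of 5hmC and 5mC peaks per Mb of each chromosome relative to the mean over the autosomes (grey line at 1). Bottom, share of the peaks of each mark that carried the other mark (percent, bars for the 95% counting interval). Chromosome X stood at 0.131 and 0.0548 times the autosomal density, and 14.7% of its 5hmC peaks had 5mC.

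Mouse autosomes have the centromere at one end, at the low coordinates. Cut into 10 equal parts, the autosomes held 7.04% of 5hmC and 6.35% of 5mC peaks in the part nearest the centromere and 14.3% and 17.2% in the part nearest the other end. The ratio of 5hmC to 5mC peaks was between 0.705 and 0.772 in the first 8 parts and fell to 0.601 in the ninth and 0.576 in the tenth. The share of 5hmC peaks with 5mC was 34.3% in the first part and 51.0% in the tenth, while that of 5mC peaks with 5hmC stayed between 26.8% and 30.2%.

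The classes also differed in what was there before and after, in part through the class rule itself. 5hmC-only peaks were mostly at places with no earlier or later peak, and of the peaks with both marks the larger part lay on fibroblast 5mC and, counted separately, on iPS 5hmC. In fibroblasts, 30.2% of 5hmC peaks with 5mC (29.8 to 30.6) had neither mark, against 88.7% of 5hmC-only peaks (88.5 to 88.9). A 5hmC-only peak cannot lie on a day-3 5mC peak, and 89.7% of fibroblast 5mC peaks overlapped a day-3 5mC peak, so few 5hmC-only peaks could have fibroblast 5mC, and 3.72% did. For 5hmC peaks with 5mC this share was 62.5%, of which 49.1 percentage points had 5mC alone in fibroblasts. Fibroblast 5hmC was found under 20.7% of 5hmC peaks with 5mC (20.4 to 21.1) and 8.12% of 5hmC-only peaks (7.92 to 8.33). This gap lay in places where fibroblasts had both marks, 13.4% of 5hmC peaks with 5mC and 0.546% of 5hmC-only peaks, which the class rule touches in the same way. Fibroblast 5hmC without 5mC was found at 7.30% (7.07 to 7.54) and 7.57% (7.38 to 7.77).

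In iPS cells, 5hmC was found at 73.4% of the 5hmC peaks with 5mC (73.0 to 73.8) and 31.3% of the 5hmC-only peaks (31.0 to 31.7). It was found at 72.9% of the 5mC peaks with 5hmC (72.55 to 73.3) and 50.8% of the 5mC-only peaks (50.5 to 51.1). Between the single-mark classes, most of the gap lay in places where iPS cells had both marks, 1.797% of 5hmC-only and 19.2% of 5mC-only peaks, and lacking 5mC at day 3 is what defines the 5hmC-only peaks. iPS 5hmC without 5mC was found at 47.1% of 5hmC peaks with 5mC (46.6 to 47.5), 29.5% of 5hmC-only (29.2 to 29.9) and 31.6% of 5mC-only peaks (31.4 to 31.9). With iPS 5hmC counted whether or not 5mC was there, the 5mC-only peaks had the higher share in each of 5 score groups, which were formed within each list. In the lowest, the shares were 24.5% for 5hmC-only (23.9 to 25.2) and 32.4% for 5mC-only peaks (31.9 to 33.0), and in the highest 48.3% (47.3 to 49.2) and 82.7% (82.1 to 83.2). 5hmC peaks with 5mC had iPS 5hmC in 69.7% of cases in the lowest and 78.7% in the highest group. Counted this way, the difference between the 2 classes of 5hmC peaks was larger than that between weak and strong peaks of either class. Part of it lay in places where iPS cells had both marks, 26.3% of 5hmC peaks with 5mC and 1.797% of 5hmC-only peaks. The class rule bears on these places, and iPS 5hmC without 5mC was not split by score, so this order cannot be given apart from the rule. Peaks of the 4 classes differ in width and the wider ones overlap more. A covered centre was also asked for, both in forming the classes and in counting iPS 5hmC. The shares were then 69.5% for 5hmC peaks with 5mC, 28.7% for 5hmC-only and 48.5% for 5mC-only peaks. The single-mark classes so formed include peaks that overlap the other mark away from their centre. The part of width in these shares was not tested.

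5mC in iPS cells was found at similar shares of both classes of 5mC peaks. In all, 30.4% of the 5mC peaks with 5hmC (30.0 to 30.8) and 29.0% of the 5mC-only peaks (28.7 to 29.3) had 5mC. Peaks with 5hmC had higher scores, and within score groups the order was the opposite one. In each of 5 groups the peaks with 5hmC had the lower share, at 10.4% (9.72 to 11.2) against 11.4% (11.05 to 11.8) in the lowest and 55.05% (54.2 to 55.85) against 62.4% (61.7 to 63.1) in the highest. 5mC alone was found in iPS cells at 3.51% of the peaks with both marks and 9.81% of the 5mC-only peaks, and neither mark at 23.5% and 39.4%. Peaks of day 3 that met no peak of any other stage made up 13.6% of 5hmC peaks with 5mC (13.3 to 13.9) and 64.4% of 5hmC-only peaks (64.0 to 64.7). For 5mC peaks these shares were 13.9% with 5hmC (13.5 to 14.2) and 25.8% without (25.5 to 26.0). Thus 44530 5hmC-only peaks occurred at day 3 without any peak of the fibroblast and iPS lists. The class rule bears on this contrast too, since few 5hmC-only peaks could have fibroblast 5mC. The fibroblast 5hmC list was also short, with 42301 peaks, and its depth is unknown.

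**Figure D5:**
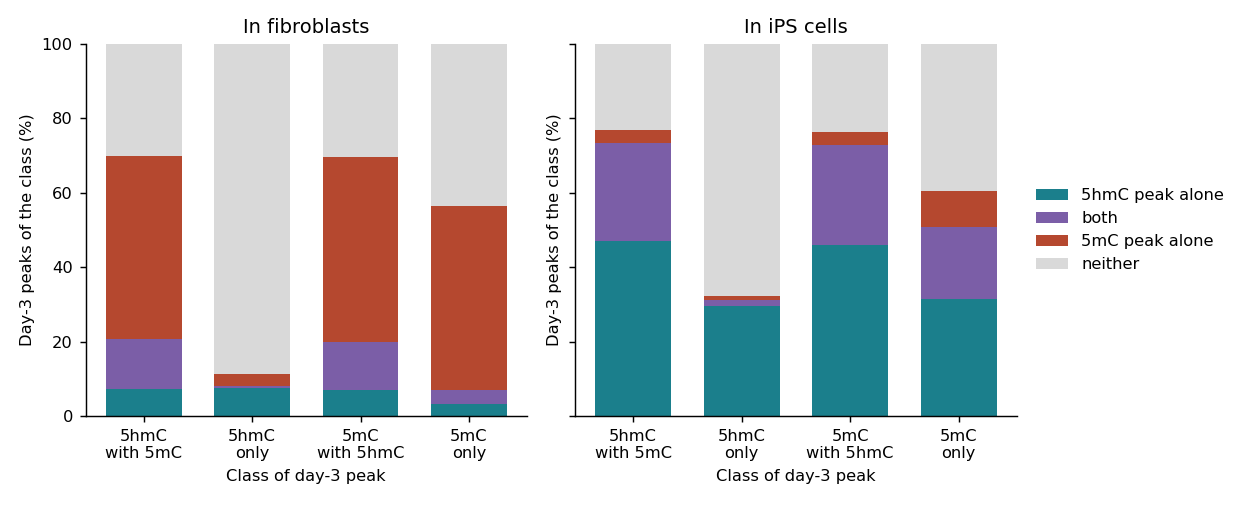
Marks found in fibroblasts (left) and iPS cells (right) at the day-3 peaks of each class, as stacked shares of the class (vertical axis, percent). Neither mark was found in fibroblasts at 30.2% of the 5hmC peaks with 5mC and 88.7% of the 5hmC-only peaks, and in iPS cells at 23.2% and 67.8%.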

How the data were processed

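Per the submitters' processing notes, the reads were handled with CASAVA 1.8, Bowtie 0.12.7 and MACS 1.4.1 on the mouse build mm9. Each deposited file is a list of peaks of 1 library with a score per peak, set by the authors' peak caller, with 50.01 as the lowest value in both day-3 lists. The sources used here do not give control libraries, caller settings or read numbers, so the depth is unknown, and both peak number and score can grow with it. Per the labels' protocols, amplification after capture took 14 to 16 cycles.

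Groups came from the sample titles. No peaks overlapped within a list. Overlap was counted from 1 bp, distances ran edge to edge, and 100 kb windows started at the first base of a chromosome. Shares have 95% Wilson intervals and medians have binomial order-statistic intervals. Python 3.11.15, numpy 2.4.6, pandas 2.3.3, scipy 1.17.1, statsmodels 0.14.6 and matplotlib 3.10.9 were used, and the counting was tested on simulated data. Alternatives were a score of at least 100, stricter overlap, lists of equal length, joined peaks, autosomes only, other distances and windows of 1 Mb.

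The named regions are the highest-scoring and broadest peak of each class, the 3 extreme windows by excess of each mark and by length under both, and the longest single-mark run of each mark. Any other region is marked in the text as picked with its values known. The peaks and these rules were chosen with earlier results of these data known. No mm9 sequence or annotation was used, so no genes are named. Positions count from 1.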

Additional observations from a re-analysis of the deposited data

Results flagged for a closer look

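The contrast between the marks ran in opposite directions at day 3 and in iPS cells. The number of 5hmC peaks over that of 5mC peaks was 0.700 at day 3 and 2.85 in iPS cells, with 1 library per stage and mark. The difference was not tested, and the depth of the libraries is unknown.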

How the results depend on the processing

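Of 56 alternative values for 14 results, 6 lay within the counting interval of the reported value and 50 lay outside it. For 5hmC, the neighbour and X values with lists of equal length, which are among the 6, could not move, since the 5hmC list is already the shorter one. The differences in width and score, which can change sign, kept theirs. Those intervals are narrow, since they cover counting error alone.

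With a score of at least 100, 31.75% of 5hmC peaks had 5mC and 24.1% of 5mC peaks had 5hmC. Width differences with minus without the other mark were 206 and 151 bp and score differences 60.3 and 50.4. Another peak of the same mark within 5 kb was found for 61.2% of 5hmC and 64.8% of 5mC peaks, the shares on X were 0.678% and 0.308%, and 41.4% of windows had more 5hmC. Shares on iPS 5hmC were 25.2% for 5hmC-only, 67.0% for 5hmC with 5mC and 48.8% for 5mC-only peaks. The iPS list and both day-3 lists were cut at this score, so these shares do not show how iPS 5hmC went with the day-3 score. Counting an overlap of at least 50%, 31.6% of 5hmC and 22.9% of 5mC peaks had the other mark, width differences were 54.5 and 72 bp, score differences 14.9 and 27.2, and the iPS shares 28.3%, 69.3% and 48.5%. Counting peak centres, these values were 32.2% and 23.4%, 65 and 79.5 bp, 19.4 and 30.3, and 28.7%, 69.5% and 48.5%. In these iPS shares the stricter overlap was used both to form the classes and to count iPS 5hmC.

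With 116087 best-scoring peaks of each list, 32.45% of 5hmC and 32.3% of 5mC peaks had the other mark, so the difference between both directions shrank. Of 5mC peaks 69.7% then had another within 5 kb and 0.333% were on X, and 49.4% of windows had more 5hmC. The iPS shares, with the iPS list cut to the same number of peaks, were 24.25%, 68.0% and 47.1%. With peaks joined over 1000 bp, 43.3% of 5hmC and 30.8% of 5mC peaks had the other mark, and 0.955% and 0.407% were on X. Within 1 kb, 35.4% of 5hmC and 35.9% of 5mC peaks had a neighbour, and within 10 kb 84.2% and 87.9%. The balance moved to 31.5% over windows of 1 Mb and to 46.3% with each list scaled by its covered length. Widths and scores thus differed between the classes less when a stricter overlap was asked for. No paired analysis was possible because each stage and mark has 1 library.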
